A study of Caenorhabditis elegans with 93 samples.

Results

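The regulatory elements of the centre of chromosome III are the 2424 promoter and enhancer intervals whose start lies between 4 and 10 Mb on that chromosome, taken by position alone from the 31618 elements quantified by ATAC-seq in C. elegans embryos. The remaining 2199 elements of chromosome III, 1119 on the left arm and 1080 on the right arm, served for comparison. Accessibility was measured in 31 libraries from 3 untreated lineages (A, B and C) of the laboratory strain N2, each begun from 2 hermaphrodites of an expanded population and carried on from 2 hermaphrodites in every generation at 20 °C. Embryos were collected in the PMA generation (generation 0, the founder plate of each lineage) and at alternate generations from 2 to 20, and the same pellets gave 31 RNA-seq and 31 small RNA-seq libraries. Each lineage and generation has 1 library. Lineage B was not analysed here at generation 4 in any assay, nor lineage C at generation 8 in ATAC-seq and at generation 14 in both RNA assays. Each library pools many embryos of mixed cell types, so that a change in the number of cells of a type and a change in accessibility or RNA per cell cannot be told apart.

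ATAC-seq uses a transposase that inserts sequencing adapters into DNA not covered by nucleosomes, so that active promoters and enhancers collect many reads. The autosomes of C. elegans have a gene-dense centre with little recombination, flanked by arms that recombine more, hold more repeats and carry more of the heterochromatin mark H3K9 methylation, and the arms are tethered to the nuclear periphery in embryos. The centre of chromosome III holds, among others, the Hox genes lin-39, mab-5, egl-5 and ceh-13, which pattern the body axis, and the Notch receptor genes glp-1 and lin-12.

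The ATAC-seq libraries held between 2995631 and 12251653 reads in elements (median 6027220), and centre elements took between 6.71% and 7.49% of them. A level is given throughout as a normalized count, the reads of an element divided by the size factor of the library. A value of exactly 1 in the deposited tables stands for no reads, which occurred in 1 of 75144 values of the centre and 40 of 68169 of the arms. All 8 embryonic marker genes checked in the RNA-seq libraries were detected, with a summed normalized count between 18824 and 27041. The sperm genes (31 major sperm protein genes, sum between 366 and 819), the adult yolk genes (5 genes, 53.0 to 217) and the adult cuticle genes (2 genes, 13.5 to 55.3) were low in every library.

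Elements were packed more densely in the centre than on the arms, at 404 per Mb against 280 on the left arm and 286 on the right arm, and the median distance between neighbouring starts was 1037 bases against 1574.5 and 1340. Their levels were similar. The median over elements of the mean normalized count was 110 in the centre (quartiles 65.0 and 188), 109 on the left arm and 112 on the right arm, beside 118 over all elements of the file. In the annotation 494 centre elements lay in exons, 719 in introns and 1211 between genes (20.4 and 29.7% for exons and introns), and the arms had 21.4 and 31.1%. Centre elements in introns had the highest median level (121), above those in exons (113) and between genes (105). Those within 200 bases of an annotated start of a protein-coding gene made up 26.8% of the centre and had a median level of 95.2, lower than the 117 of elements farther away. The 2424 centre elements were nearest to 898 protein-coding genes, of which 311 had 3 or more elements and the most richly supplied had 31.

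The nearest genes of centre elements were expressed at higher levels per length than those of arm elements, although the median level of the elements was similar. Their median RNA level was 587 normalized counts per kb of the counted interval (quartiles 139 and 1426, 898 genes) against 259 for the 814 genes nearest to arm elements (75.5 and 724). The left arm had 179 and the right arm 345. The intervals run from end to end of a gene with its introns. They were shorter in the centre (median 2.43 kb against 3.39 kb), and the part of this in the difference was not tested. Of the centre genes 862 (96.0%) reached a mean of 10 normalized counts, and of the arm genes 767 (94.2%). These values are descriptions, since genes are not replicates.

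The 3 most accessible elements of the centre stood far above the rest and varied together across libraries. The first (chrIII:6280226-6280376, 79 bases from the start of hmg-1.2, which encodes a DNA-bending HMG box protein) had a mean level of 4163 ± 1851 (SD, n = 31). Its level ranged from 982 in generation 4 of lineage A to 7272 in generation 18 of lineage C, with a median of 4598. The second (chrIII:8874296-8874446, in an intron of K01F9.2) ranged from 958 to 5665 (median 3446). The third (chrIII:8425251-8425401, between genes and nearest to cec-1, which encodes a chromodomain protein) ranged from 786 to 4572 (median 2949). All 3 were lowest and highest in the same 2 libraries. The ranges of the 3 lineages overlapped at each of them, for instance 982 to 5625 in A, 1371 to 6369 in B and 1896 to 7272 in C for the element at hmg-1.2. In generation 0 that element had 3289 in A, 1465 in B and 6402 in C, so that the founder plates of the 3 lineages spanned most of the range.

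The libraries also differed in how strongly reads were concentrated in accessible elements. The share of reads in the most accessible 10% of all elements lay between 25.3 and 48.4% (median 40.7%), and was lowest in generation 4 of lineage A and highest in generation 18 of lineage C. The centre had a higher level relative to the arms where that share was higher. The value used was the median log2(normalized count + 1) over centre elements minus that over arm elements, computed in each library. Over the 31 libraries Pearson's r between it and the share was 0.54 (permutation p = 0.00184, adjusted 0.00368 over 2 measures) and Spearman's rho was 0.60 (p = 0.00044, adjusted 0.00088). Without the 2 libraries farthest from the median share r was 0.55. Within lineages r was 0.72 in A, 0.63 in B and 0.34 in C (permutation p = 0.0160, 0.0535 and 0.319), so that the relation was not detectable within lineage C. For the reads in elements, the other measure tried, r was -0.23 (permutation p = 0.218) and rho -0.28 (p = 0.131). Within lineage A its rho was -0.76 (permutation p = 0.00841), while it was -0.0061 in B and -0.32 in C (p = 1 and 0.368).

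Between libraries the centre varied less than the arms in the lower classes of level and more in the highest. For each element and library the absolute deviation of log2(normalized count + 1) from the mean of that element was taken. Its mean over centre elements was lower than over arm elements by 0.011 on average, in 26 of 31 libraries (two-sided paired permutation test over libraries, p = 0.00058), a comparison chosen after the values had been seen. The elements of the file were divided by level into 4 classes of equal size. In the class with the lowest level (657 in the centre) the difference was -0.037, with the centre lower in 31 of 31 libraries, and in the second class -0.014, in 27 of 31 (adjusted permutation p = 2e-05 for both). In the third class it was -0.0029 (17 of 31, adjusted p = 0.312). In the highest class the direction turned, and the centre deviated more by 0.026, being lower in 12 of 31 libraries (adjusted p = 0.0174). The median SD over libraries of a centre element was 0.38 log2 in the lowest class and 0.27 in the highest, against 0.41 and 0.26 on the arms. Levels were not fully matched within the lowest class, with a median of 44.4 in the centre and 42.1 on the arms. The part of this in the difference was not tested.

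The 3 centre elements with the largest SD over libraries comprised that of hmg-1.2 (SD 0.83 log2) and 2 of very low level. One (chrIII:7795423-7795573) lay 89 bases from the start of cyk-7, a gene required for cytokinesis, and ranged from 1.55 in generation 0 of lineage A to 40.3 in generation 20 of the same lineage (median 15.4, SD 0.96 log2). The other (chrIII:9758993-9759143) lay in an intron of gcc-2 and ranged from no reads in generation 18 to 28.3 in generation 6 of lineage A (median 12.7, SD 0.92 log2). Within lineages the ranges at cyk-7 were 1.55 to 40.3 in A, 3.58 to 26.0 in B and 8.98 to 29.8 in C, and they overlapped.

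Lineages were compared to ask whether accessibility had come to differ between populations kept apart. No difference between lineages was called at any centre element. Of 2422 centre elements with a mean of at least 10 normalized counts, none passed an adjusted p of 0.05 for B minus A, C minus A or C minus B (limma, generation as a block, Benjamini-Hochberg adjustment over the 31498 elements tested), where the share over all elements was 0% in each comparison. edgeR on recovered reads called none either. At an unadjusted p under 0.05 limma gave 64, 285 and 463 centre elements (2.64, 11.8 and 19.1%), beside 2.87 to 16.6% of all elements and 4.08, 13.9 and 13.6% of arm elements, and edgeR gave 50, 302 and 451. The fitted differences of centre elements lay between -0.74 and 0.88 log2 over the 3 comparisons, with a median SE of 0.11 to 0.12. An interval of 2 SE around the difference stayed within 1 log2 unit of no difference for 99.8% of centre elements for B minus A, 99.4% for C minus A and 98.1% for C minus B, and within 0.5 log2 units for 88.2, 81.1 and 74.8%. Smaller differences could not be told from the spread between libraries.

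The level of the region as a whole passed no test of a difference between lineages. The median log2 level of centre minus arms lay between -0.12 and 0.19 in A (median 0.030, 11 libraries), between -0.14 and 0.092 in B (median -0.052, 10 libraries) and between -0.11 and 0.23 in C (median -0.051, 10 libraries). The 3 ranges overlapped widely. The means of the lineages spanned 0.060, which gave a permutation p of 0.365 (100000 permutations over libraries), and 0.212 when lineages were permuted within generations. Compared at shared generations, B was lower than A in 8 of 10, by 0.066 on average (SD 0.082, two-sided exact paired permutation p = 0.0176, adjusted over the 3 pairs 0.0527). C minus A was -0.027 (5 of 10 lower, adjusted exact p = 0.521) and C minus B 0.041 (6 of 9 higher, adjusted exact p = 0.422).

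Nor was a difference called among the genes near centre elements. Of the 862 genes tested none passed for B minus A, C minus A or C minus B by limma or by edgeR, while over all 16714 genes 0.00598, 0.0359 and 0.0538% were called by limma. At an unadjusted p under 0.05 limma gave 30, 141 and 184 of the centre genes (3.48, 16.4 and 21.3%) beside 5.09, 17.3 and 19.99% of all genes. For edgeR the counts were 33, 121 and 171 (3.83, 14.0 and 19.8%) beside 5.15, 15.6 and 18.9% of all genes.

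Generation 0 was compared with the 28 later libraries, and many of the nearest genes were called while no element was. The later libraries run from generation 2 to 20, and generation 0 was collected before all of them. Effects of bottlenecks and of the time of collection therefore cannot be told apart here. No centre element passed the threshold for generation 0 minus later (limma with lineage as a block; 0% of all elements), nor did any under edgeR. At an unadjusted p under 0.05 limma gave 244 centre elements (10.1%, with 11.4% of all elements) and edgeR 277. The smallest adjusted p in the centre was 0.0898. The interval of 2 SE stayed within 1 log2 unit for 96.8% of centre elements and within 0.5 for 51.7%. The median log2 level of centre minus arms was 0.030, -0.048 and 0.12 in generation 0 of A, B and C and lay between -0.14 and 0.23 later, so that all 3 were inside the later range. The mean difference within lineages was 0.051 (exact permutation within lineages, 1100 placements, p = 0.403).

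Among the 862 genes near centre elements, 352 (40.8%) differed between generation 0 and later generations, 250 higher in generation 0 and 102 lower (limma, adjusted p under 0.05). Over all genes 39.6% were called, 21.9% higher and 17.7% lower. The centre genes had 29.0% higher and 11.8% lower, and the genes near arm elements 28.8% and 18.6%. In the same comparison 4 of 4 oocyte and germ line marker genes and 5 of 8 embryonic markers were higher in generation 0. The summed count of the 4 oocyte and germ line markers lay between 5357 and 10499 in generation 0 and between 2559 and 4573 later, without overlap, and its part in the difference was not tested.

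The elements next to these genes had differences near 0 whichever way the gene went. The 540 elements nearest to genes higher in generation 0 had a median log2 difference of 0.017 (quartiles -0.15 and 0.15), while the median of their 249 genes was 0.50. The 303 elements nearest to genes lower in generation 0 had a median of 0.0010 (quartiles -0.14 and 0.098) beside -0.52 for their 102 genes. The 1497 elements near genes that were not called had 0.018. The central 90% of differences ran from -0.39 to 0.32 log2 over 2340 centre elements and from -0.61 to 0.74 over their 861 genes. Across the pairs of element and gene, Spearman's rho was 0.010, given as a description since elements share genes and libraries. On the arms the medians of the elements near higher, lower and uncalled genes were 0.021, -0.054 and -0.044.

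**Figure D1:**
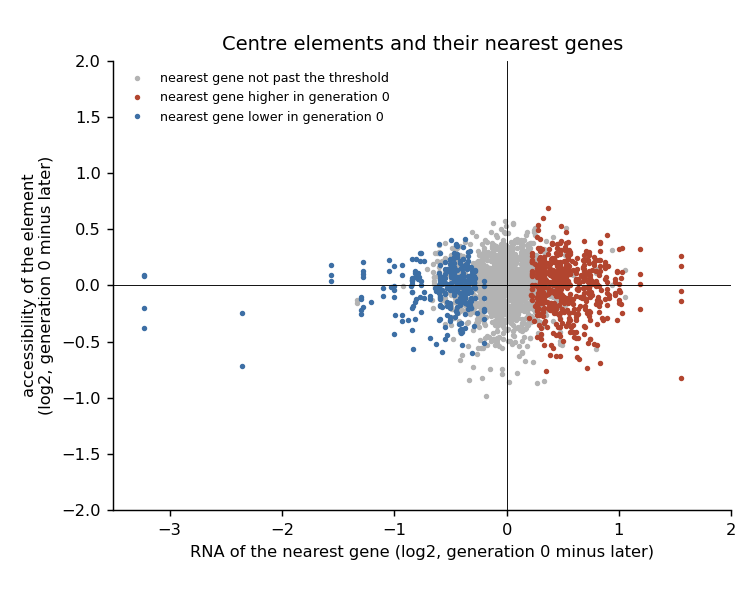
Difference between generation 0 and later generations for centre elements (vertical axis, log2 of accessibility) and for the RNA of their nearest genes (horizontal axis, log2), 1 point for each of 2340 elements, coloured by the call of the gene. The points spread along the horizontal axis from -3.23 to 1.56 and stay between -0.98 and 0.69 on the vertical axis in all 3 colours.

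The largest rise among called centre genes was that of cpg-1, which encodes a chondroitin proteoglycan of the eggshell, with normalized counts of 1097, 1514 and 1624 in generation 0 of A, B and C and 172 to 933 later (median 458). These ranges did not overlap (log2 difference 1.56 ± 0.38 SE, limma adjusted p = 0.00172). The next was iff-1, a translation factor isoform needed for germ cell proliferation, with 3623, 5154 and 8976 against 1642 to 4852 later (log2 1.19 ± 0.20 SE, adjusted p = 3.01e-05). Here generation 0 of lineage A lay inside the later range. The largest falls were those of F43C1.7, with 6.46, 1.93 and 6.56 in generation 0 against 17.4 to 104 later (log2 -3.23, adjusted p = 3.71e-08), and F56D2.5, with 49.9, 96.7 and 59.0 against 109 to 777 (log2 -2.36, adjusted p = 1.09e-05). Generation 0 did not overlap the later libraries at either. The elements nearest to these 4 genes had log2 differences between -0.82 and 0.32, none of them called, with a lowest adjusted p of 0.221.

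The counts of this and the following short lists stand beside 29.0% higher and 11.8% lower among the 862 centre genes. Over all genes these shares were 21.9 and 17.7%, and no list was tested as a set. Of the cell cycle and polarity genes near centre elements 3 of 4 rose in generation 0, namely rnr-1 (large subunit of ribonucleotide reductase), cdk-1 (the mitotic kinase) and plk-1 (Polo-like kinase). The kinase gene plk-1 had 8590, 11672 and 14171 normalized counts in generation 0 of A, B and C and 5859 to 8111 later, without overlap (log2 0.73 ± 0.09 SE, adjusted p = 1.01e-06). Its 3 elements had log2 differences of -0.017 to 0.22. The level of the most accessible of them, 2863 bases from the annotated start, was 211, 164 and 290 in generation 0 and 162 to 314 later, and thus overlapped. The log2 RNA differences of rnr-1 and cdk-1 were 0.79 and 0.74 (adjusted p = 4.61e-06 and 2.24e-05), and par-3, a polarity gene, was at 0.031 (adjusted p = 0.889).

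Of 7 homeobox genes 3 rose and none fell. The posterior patterning gene pal-1 had 3860, 4724 and 5715 normalized counts in generation 0 against 2380 to 3703 later (log2 0.69 ± 0.10 SE, adjusted p = 3.01e-06), and ceh-13, the anterior Hox gene, had 4411, 5015 and 5734 against 3105 to 4352 (log2 0.47, adjusted p = 3.24e-05). Neither gene overlapped between the groups. The third was ceh-16 (log2 0.27, adjusted p = 0.0245), while unc-86, which specifies neurons, was at -0.13 (adjusted p = 0.240). The most accessible element of pal-1, in its intron, had 465, 339 and 512 in generation 0 and 272 to 487 later, and that of ceh-13 had 191, 188 and 183 and 154 to 252. The 36 elements of the 7 genes had a median level of 149 and a median log2 difference of 0.060.

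Muscle and basement membrane genes moved the other way, and 3 of 3 fell in generation 0. They were mlc-3, a myosin light chain (20747, 16202 and 19417 against 21324 to 38030 later, log2 -0.49, adjusted p = 0.000934), emb-9, a type IV collagen (log2 -0.44, adjusted p = 0.00172), and mup-4, which links muscle to the cuticle (log2 -0.81, adjusted p = 0.0129). Generation 0 of mlc-3 lay below every later library. Their 13 elements had a median log2 difference of 0.076. The most accessible element of mlc-3, 38 bases from its start, had 826, 501 and 1106 in generation 0 and 390 to 1180 later.

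The other lists were mixed, and with 29.0% of centre genes called higher and 11.8% lower, their small counts are not read as traits of the lists. Of 8 genes of tubulins, motors and neuronal function 2 rose, tbb-2 (a beta-tubulin, log2 0.53) and dlc-1 (a dynein light chain, log2 0.41, adjusted p = 0.0468, and 0.0564 without the block), and 3 fell, unc-16, unc-79 and unc-103 (log2 -0.41, -0.79 and -0.47). The kinesin heavy chain gene unc-116 was at -0.18 (adjusted p = 0.0840). Of 7 genes of Notch signalling and vulval fate 2 rose, glp-1 (log2 0.68) and lin-52 (a subunit of the DRM repressor complex, log2 0.86), whereas lin-36 and lin-13 were at 0.13 and -0.25 (adjusted p = 0.471 and 0.520). Of 4 chromatin and transcription genes 2 rose, the nucleosome remodeller isw-1 (log2 0.45) and the TATA-binding protein gene tbp-1 (log2 0.63), while the acetyltransferase gene cbp-1 was at -0.047 (adjusted p = 0.901). Of 3 small RNA pathway genes the exonuclease gene mut-7 (log2 0.71) and the methyltransferase gene prmt-5 (log2 0.39) rose, and dcr-1, which encodes Dicer, was at 0.032 (adjusted p = 0.964). Both translation elongation genes rose, eef-1A.1 by 0.28 (adjusted p = 0.0499, and 0.0876 without the block) and eef-1B.1 by 0.54. None of 12 ribosomal protein genes was called (rps-1, rpl-21 and rps-0 at -0.073, -0.092 and -0.11), nor either of the engulfment genes ced-6 and ced-7 (0.069 and -0.050). The list of condensin, cohesin and dosage compensation genes had no member nearest to a centre element. No element of any of these lists was called between generation 0 and later generations.

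Over generations 2 to 20 no trend was called in the centre. For the change per 10 generations (28 libraries, lineage as a block) no centre element passed the threshold under limma or edgeR, beside 0.00317% of all elements, which is 1 element of the left arm. At an unadjusted p under 0.05 there were 104 centre elements under limma (4.29%, with 5.42% of all elements and 8.98% of arm elements) and 4.79% under edgeR. Slopes of centre elements ran from -0.40 to 0.54 log2 per 10 generations. The interval of 2 SE stayed within 0.5 for 95.8% of them. Of the 862 genes none was called by either tool (0.0239% of all genes by limma), with 127 and 120 at an unadjusted p under 0.05 (14.7 and 13.9%, beside 15.9 and 14.7% of all genes).

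Generation 6 was the exception. In its libraries of all 3 lineages the centre was more accessible relative to the arms than in most other libraries, a comparison chosen after the values of all generations had been seen. The median log2 level of centre minus arms was 0.19 in A, 0.092 in B and 0.23 in C in generation 6 and lay between -0.14 and 0.17 in the other 28 libraries (median -0.049). The libraries of lineages A and C lay above all others, and that of B was above all other libraries of its own lineage. The mean difference within lineages was 0.20 (exact permutation within lineages, p = 0.000909, the smallest that 1100 placements allow, and 0.0100 adjusted over the 11 generations). The next largest mean difference was -0.087 in generation 14 (p = 0.145, adjusted 0.738). The centre median was 6.82 to 6.86 log2 in generation 6 against 6.73 to 6.84 elsewhere, and the arm median was 6.62 to 6.73 against 6.66 to 6.92, so that the ranges overlapped for each region taken alone. The generation 6 libraries were shallow, with 3447802, 4268022 and 4089002 reads in elements, and held 41.5 to 43.8% of reads in the most accessible 10% of elements, inside the range of the other libraries. The sequencing pool of each library is not given in the sources used here, and the part of pool, depth and concentration of reads was not tested.

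**Figure D2:**
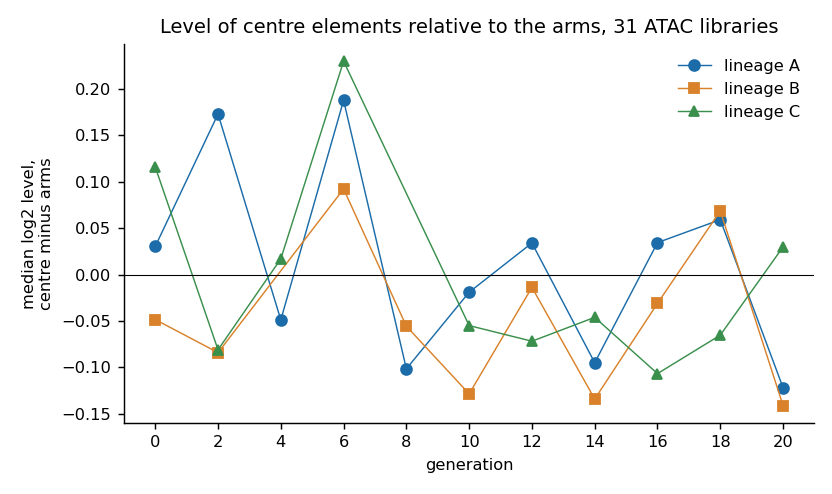
Median log2(normalized count + 1) of centre elements minus that of arm elements of chromosome III (vertical axis) by generation (horizontal axis) in 31 ATAC-seq libraries, 1 point a library, with symbols and lines for lineages A, B and C. The points of generation 6 are at 0.19, 0.092 and 0.23, and no other generation has all its libraries above 0.

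At single elements the same shift appeared as opposite calls in the centre and on the arms. Of 2422 centre elements 151 (6.23%) differed between generation 6 and the other generations, 95 higher and 56 lower (limma, lineage as a block, adjusted p under 0.05). On the arms 223 of 2182 were called, of which 18 were higher and 205 lower. Over all elements 7.95% were called, 2.68% higher and 5.27% lower. edgeR gave 75 higher and 21 lower in the centre and 12 higher and 119 lower on the arms. The count in the centre rests on the 3 generation 6 libraries, of which A and C decide most of it. Without lineage A 11 centre elements were called, without lineage C 20, and without lineage B 107. The median log2 difference was 0.067 over centre elements and -0.12 over arm elements.

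The change of direction followed the borders of the centre. In every 1 Mb bin of the centre the median log2 difference was positive, from 0.040 to 0.13, and in every bin of the arms it was negative, from -0.066 to -0.19. The bins next to the left border gave -0.066 outside and 0.054 inside, and those next to the right border 0.040 inside and -0.11 outside. Within the centre the numbers called higher and lower ranged from 19 and 3 in the bin from 7 to 8 Mb to 14 and 14 in the bin from 9 to 10 Mb.

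**Figure D3:**
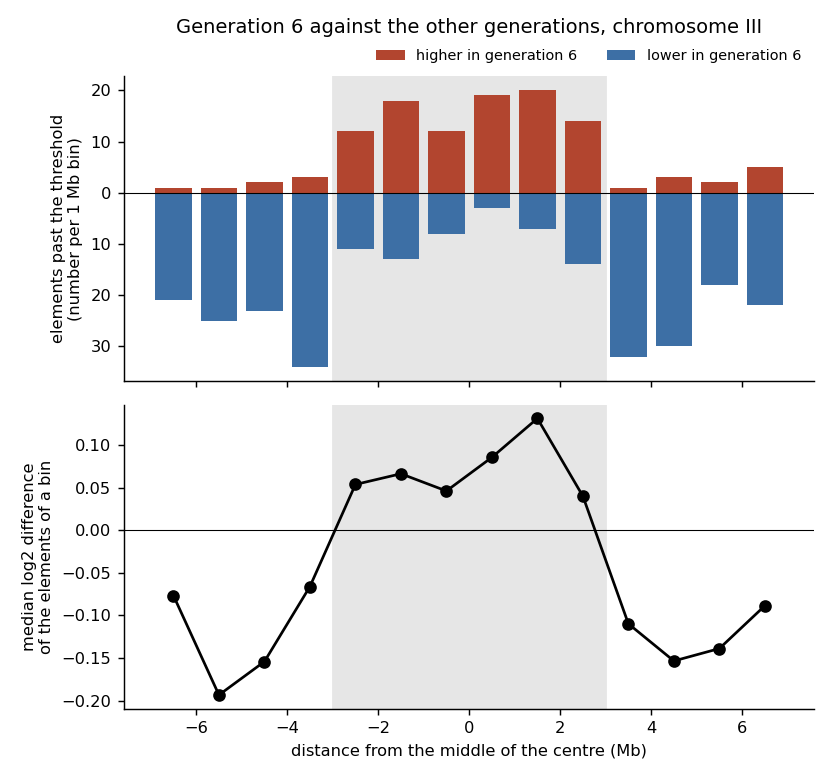
Generation 6 against the other generations along chromosome III in 1 Mb bins (horizontal axis, distance from the middle of the centre in Mb, centre shaded). The upper panel gives the number of elements past the threshold, higher upwards and lower downwards, and the lower panel the median log2 difference, which is above 0 in all 6 bins of the centre and below 0 in all 8 bins of the arms.

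The location of the called elements is given as a description, without a test. Of the 95 higher centre elements 61 (64.2%) lay between genes and 11 in exons, and of the 56 lower ones 17 (30.4%) lay between genes and 22 in exons, while 49.96% of all centre elements lay between genes. The higher ones had a median level of 142 and the lower ones of 102.7. Over all tested centre elements the median log2 difference was 0.14 between genes, 0.060 in introns and -0.085 in exons, and on the arms it was -0.074, -0.10 and -0.23. By level, the centre had medians of -0.0086, 0.0065, 0.042 and 0.22 from the lowest to the highest class, and the arms -0.17, -0.17, -0.16 and -0.018. The centre was thus higher than the arms in each class of location and level.

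Among the called centre elements the 5 with the largest rise lay between genes. The first (chrIII:7116282-7116432, 919 bases from the start of nhr-10, a nuclear hormone receptor gene) had normalized counts of 207, 134 and 172 in generation 6 of A, B and C and 44.3 to 140 in the other libraries (median 72.2), with lineage B inside that range (log2 1.15 ± 0.23 SE, limma adjusted p = 0.00360). The element near snu-23, a splicing factor gene (chrIII:7770392-7770542), had 56.5, 36.4 and 51.0 against 6.68 to 48.7 (log2 0.997, adjusted p = 0.0302). That near K06H7.7 (chrIII:8085459-8085609, 59 bases from its start) had 664, 528 and 529 against 172 to 605 (log2 0.97, adjusted p = 0.0287). The element near dnpp-1, an aminopeptidase gene (chrIII:5864040-5864190), had 122, 105 and 148 against 36.9 to 113 (log2 0.95, adjusted p = 0.00525), and that near K04G7.1 (chrIII:7165386-7165536) had 223, 127 and 203 against 62.9 to 151 (log2 0.93, adjusted p = 0.00248). Lineage A exceeded every library of the other generations at all 5, lineage C at all but K06H7.7, and lineage B at none.

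Of the 5 called elements with the largest fall, the first lay in an intron of pde-2, a cyclic nucleotide phosphodiesterase gene (chrIII:8981304-8981454), and had 19.4, 32.2 and 7.73 in generation 6 of A, B and C and 22.8 to 69.1 elsewhere (log2 -1.26 ± 0.26 SE, adjusted p = 0.00360). The element 155 bases from the start of pfd-5, a prefoldin subunit gene (chrIII:7198964-7199114), had 3.53, 7.004 and 15.5 against 4.66 to 41.6 (log2 -1.22, adjusted p = 0.0442), and edgeR did not call it (adjusted p = 0.121). The element near clec-162, a gene with a C-type lectin domain (chrIII:9722163-9722313), had 12.4, 26.6 and 32.5 against 27.6 to 101 (log2 -1.16, adjusted p = 0.00762). That near R13A5.10 (chrIII:7583120-7583270) had 14.1, 28.02 and 10.8 against 15.5 to 59.3 (log2 -1.01, adjusted p = 0.0190), with 0.0684 under edgeR. That in an intron of bre-3, a glycosyltransferase gene (chrIII:9476684-9476834), had 35.3, 32.2 and 10.8 against 25.4 to 104 (log2 -0.90, adjusted p = 0.0174), with 0.0732 under edgeR. Lineage A lay below every library of the other generations at all but bre-3, lineage B only at clec-162, and lineage C at pde-2, R13A5.10 and bre-3. Each of these 10 elements lost its call when some lineage was left out. Without lineage A the elements at nhr-10, snu-23, K06H7.7, K04G7.1, pfd-5, clec-162 and R13A5.10 were not called, without B those at K06H7.7 and pfd-5, and without C those at snu-23, dnpp-1, pde-2, pfd-5, R13A5.10 and bre-3.

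**Figure D4:**
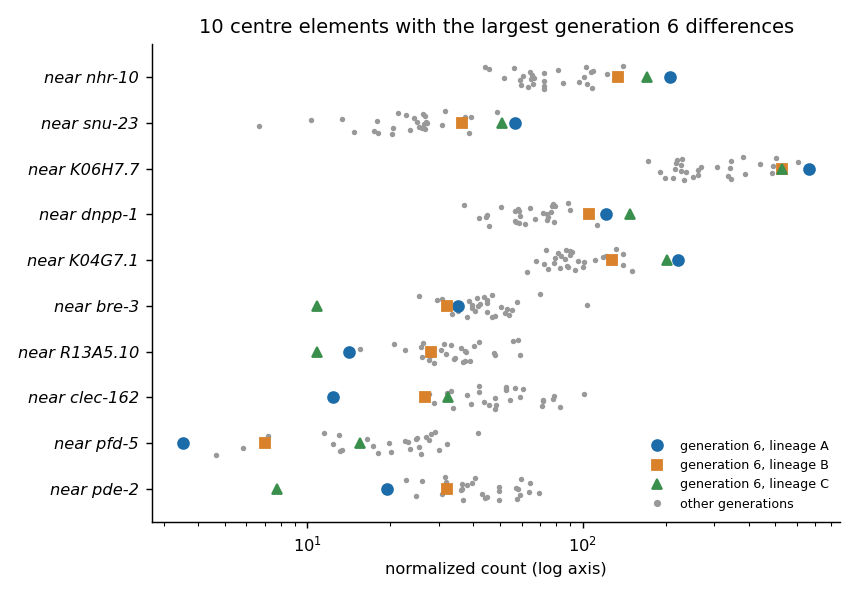
Normalized counts (horizontal axis, logarithmic) of the 5 centre elements with the largest rise and the 5 with the largest fall in generation 6, 1 row an element named by its nearest gene. Large symbols are the generation 6 libraries of lineages A, B and C and small grey points the other 28 libraries, and the value of lineage B is the lowest of the 3 in each of the 5 rising rows.

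Among the listed genes, elements higher in generation 6 lay in introns of mab-5, ceh-16 and par-3 and in exons of zfp-1 and lin-52 (log2 0.41, 0.44, 0.64, 0.45 and 0.54), and elements lower lay in exons of mlc-3 and eef-1A.1 (log2 -0.46 and -0.46). At the element of eef-1A.1 the level was 164, 164 and 190 in generation 6 and 181 to 363 elsewhere, so that lineage C lay inside the other range. No other element of the lists was called.

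No nearby gene was called in generation 6 by its RNA. None of the 862 genes was called by limma or edgeR (0% of all genes). At an unadjusted p under 0.05 limma gave 5 centre genes (0.580%) and edgeR 4 (0.464%), beside 1.08 and 1.10% of all genes. The other generations included generation 0 here. The absence of calls does not show that RNA was unchanged. The nearest genes of the 90 higher centre elements with RNA values had a median log2 difference of 0.012, and 51 had the sign of the element, and those of the 53 lower elements had 0.022, with 25 of the same sign.

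Z-scores, the measure by which the study defines chromatin-based epimutations, compare each later library with generation 0 of its lineage. In these terms the centre changed less often than the arms and about as often as the elements of the file as a whole. At a cut-off of 2.25 between 2.35 and 3.71% of centre elements changed in a library (median 2.97%), and between 3.09 and 5.91% of arm elements (median 4.30%), beside 3.06% of all values over the file. With a mean of 2.99% per library the centre was near the share over the file, and the arms lay above it at 4.37%. The centre was lower than the arms in 26 of 28 libraries, by 1.38 percentage points on average (two-sided paired permutation over libraries, p = 1e-05, the smallest that 100000 permutations give). The 2 exceptions were generations 16 and 20 of lineage B. The libraries of a lineage share 1 generation 0 library and are not fully independent. Lineage means were 3.20 against 4.54% in A, 2.83 against 3.81% in B and 2.92 against 4.73% in C.

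**Figure D5:**
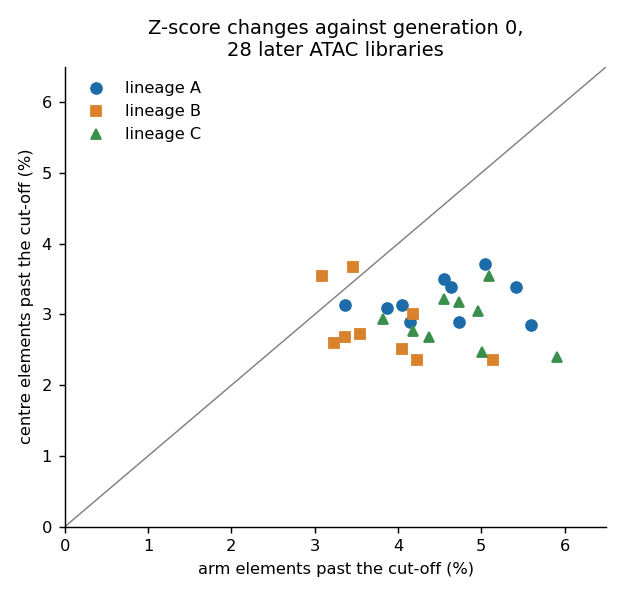
Share of elements past the Z-score cut-off in each of 28 later ATAC-seq libraries, arms on the horizontal and centre on the vertical axis (both in %), with symbols for lineages and a line of equal shares. All points but 2 of lineage B lie below the line.

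On average over the libraries the centre was below the arms in increases, and no difference was detected in decreases. Opening past the cut-off (UP) was found in 1.43% of centre elements and 2.75% of arm elements on average, a difference of -1.32 percentage points with the centre lower in 26 of 28 libraries (permutation p = 1e-05, adjusted over both directions 2e-05). Closing (DOWN) was found in 1.56 and 1.61%, a difference of -0.057, with the centre lower in 10 of 28 (p = 0.698). Over all elements of the file the averages were 1.67% UP and 1.39% DOWN. In UP the centre was thus nearer to the file than the arms were. In the 3 generation 6 libraries the centre was below the arms in both directions, and more so in decreases. UP was found there in 1.69% of centre and 1.99% of arm elements on average, and DOWN in 0.949 and 2.46%. When shares were taken within the 4 classes of level and averaged, the difference over both directions was -1.20 (p = 1e-05). Without the generation 6 libraries it was -1.33.

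Over the 28 libraries 750 centre elements (30.9%) were past the cut-off at least once, beside 30.4% of all elements and 38.2% of arm elements. In all 3 lineages 71 centre elements (2.93%) changed, and 136 arm elements (6.18%), beside 3.64% of all elements. Consecutive changes of 1 direction formed 1674 runs in the centre, of which 234 (14.0%) covered at least 2 sampled generations, beside 14.5% over the file and 17.0% on the arms, where 24 runs shared by all lineages had been removed. The share was 14.9% in A, 14.4% in B and 12.5% in C. Of the 234 longer runs 152 were UP and 82 DOWN, although of all runs in the centre 949 were DOWN and 725 UP. Over the file longer runs were likewise more often UP (2155 against 970), with 10960 DOWN and 10621 UP among all runs. On the arms 270 longer runs were UP and 87 DOWN, and of all runs 1242 were UP and 853 DOWN. The longest run covered 10 sampled generations.

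The 3 centre elements that passed the cut-off in the most libraries were at low levels. An element 45 bases from the start of F10E9.7 (chrIII:8307472-8307622) did so in 15 libraries, 10 UP and 5 DOWN, and ranged from 5.37 in generation 14 of lineage B to 97.4 in generation 4 of lineage C (median 42.1). In generation 0 it had 27.96, 27.8 and 43.0 in A, B and C. An element 152 bases from the start of dnj-10, which encodes a DnaJ domain protein (chrIII:8630938-8631088), passed in 15, 6 UP and 9 DOWN, with a range from 13.4 to 43.7. Its lowest and highest values were both in generation 0, in B and in C, so that the reference level alone differed by the whole range. An element in an exon of F31E3.6 (chrIII:6982122-6982272) passed in 14 with levels of 1.94 to 17.9, and its mean of 8.25 kept it out of the tests.

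Antisense 22G-RNAs are secondary small RNAs bound by Argonaute proteins. According to the study the WAGO-1 pathway silences its targets, while the CSR-1 pathway is associated with gene activation. Such 22G-RNAs were found for 558 of the 898 centre genes (62.1%) and 532 of the 814 arm genes (65.4%). Their median was 11.8 normalized counts per kb of the gene interval in the centre and 6.32 on the arms. Not divided by length, the medians were closer, at 28.19 normalized counts in the centre and 24.04 on the arms (21.45 left, 28.32 right). The intervals of the nearest genes were shorter in the centre (median 2.43 kb against 3.39 kb). The part of this in the difference per kb was not tested. Of all Z-scores of 22G-RNAs 2.53% were past the cut-off for centre genes and 3.69% for arm genes, beside 3.90% over the 7844 genes with 22G-RNAs that were matched to the RNA table. Of their runs 13.7 and 16.6% covered at least 2 sampled generations, beside 17.2% over those 7844 genes. Of 2694 combinations of a centre gene and a lineage, 930 had an element past the cut-off, and 84 of these (9.03%) also had a 22G-RNA change, with 8.96% among the others. Of the 234 longer runs of centre elements 24 lay next to a gene with a 22G-RNA change in the same lineage. These are descriptions without a test.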

How the data were processed

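ATAC-seq, RNA-seq and small RNA-seq tables of 93 libraries (31 each) were used. The deposited signal values are read counts that the authors divided by DESeq2 size factors after alignment to WS252 with Bowtie2 (small RNAs to ce11 with Bowtie) and counting with BEDTools over a published set of promoters and enhancers and over the longest transcript of each coding gene. Versions are not given in the sources used here. Whole reads were recovered from the values within 0.001 read, with values of 1 read as no reads in ATAC-seq and RNA-seq. Element coordinates are those of the file, 150 bases long, and each element was given the nearest protein-coding interval of the RNA table, with names and locations from WBcel235 and Ensembl 115 (26231 of 27790 RNA-seq genes matched).

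Elements and genes with a mean of at least 10 normalized counts were fitted over the whole table by limma 3.58.1 (moderated, robust mean trend) on log2(normalized count + 1), with generation as a block between lineages and lineage as a block between generations, and by edgeR 4.0.16 with TMM scaling on recovered reads as an alternative, in R 4.3.3. Fold changes are on that log2 scale and understate changes of low elements. Precision is lowest in shallow libraries (2995631 to 12251653 reads in elements), and libraries were not weighted by depth. Z-scores followed the study, as residuals of the log2 ratio to generation 0 on the log2 mean of both libraries, over their SD. Permutations used Python 3.11.15 and numpy 2.4.6. The fits for B minus A, generation 0 minus later and generation 6 were tested on simulated data. So were the Z-score runs and the permutation tests of differences. The fits of the other contrasts and the permutation p-values of correlations were not. The alternatives were a pseudocount of 5, no filter, edgeR, no replicate block, a centre from 5 to 9 Mb, single arms, other cut-offs and models, the nearest gene start, and leaving out generation 0, generation 6 or a lineage.

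Named elements are the 3 of highest level, the 3 of largest SD, the 3 with most Z-score changes and those called, named genes the 2 largest called changes each way and up to 3 genes of each list by counts per kb. The 5 largest each way in generation 6, and any other gene or element named, were chosen after their values were seen. The members, lists and tests were chosen with earlier results of these data known. Nothing says that libraries of a lineage are more than single samples, so p-values measure the spread between these libraries, which may be technical. No genome sequence was used here.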

Additional observations from a re-analysis of the deposited data

Results flagged for a closer look

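Of 46 sets of 9 or 10 values (levels of the named elements, the shares past the cut-off, the level of centre minus arms and the concentration of reads, each within a lineage), 4 held a value whose gap to the nearest other exceeded the critical value of Dixon's test, which chance does in about 1 of 20 sets. Sets of 11 values were not examined, so that lineage A entered only with its shares past the cut-off. The absence of flags for its element levels is therefore not a result. The element near dnpp-1 was outlying in generation 6 of lineage B, at 105 normalized counts against 44.5 to 76.6 in the other libraries of that lineage, and in generation 6 of lineage C, at 148 against 36.9 to 89.6. The element near K04G7.1 was outlying in generation 6 of lineage C, at 203 against 73.8 to 140. Since both were named for their rise in generation 6, these flags are descriptions of the same values. The element near bre-3 was outlying in generation 14 of lineage B, at 104 against 32.2 to 57.7.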

How the results depend on the processing

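Of the alternative values of the comparisons, 97 kept their direction and side of the threshold, or their count within 1.5 times. The other 4 concern the 151 centre elements called in generation 6, which became 96 with edgeR on recovered reads, 100 with a centre from 5 to 9 Mb, 11 without lineage A and 20 without lineage C. Over the 3 lineages left out in turn the count ran from 11 to 107, where 107, without lineage B, stayed within 1.5 times. No centre element was called between lineages, between generation 0 and later or per 10 generations under any alternative run. The generation 6 and deviation comparisons and their alternatives were chosen after seeing the data. With generation as a replicate block the range of lineage means in the level of centre minus arms was 0.060 (permutation p = 0.212), an alternative also chosen after seeing the data. Without the replicate block the count in generation 6 was 143, and the 352 centre genes called between generation 0 and later became 349. The pairing by generation was partial. The deviations of same-generation libraries from the lineage means correlated with a median of 0.17 in ATAC-seq and 0.31 in RNA-seq (29 pairs), above 0.1 in 19 and 26 of them. Leaving out a lineage moved the difference in Z-score changes between -1.57 and -1.17 percentage points, and the generation 6 difference in level between 0.17 and 0.23. Of the alternative values of named elements and genes 143 kept their call and 23 lost it, all in elements of generation 6 but for the RNA of dlc-1 (without the block) and eef-1A.1 (without the block or with a pseudocount of 5), and the cause was not tested. Single libraries per lineage and generation, shallow generation 6 libraries and unknown sequencing pools limit these comparisons.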
